A study of Mus musculus with 7 samples.

Results

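The 30 genes described here make, sense, move and store cholesterol. They were chosen by name from knowledge of the pathway, as the rows of the deposited count table that carry these gene names, and all 30 were found among its 34745 genes. They comprise 7 enzymes of the mevalonate steps, 11 enzymes of the steps from squalene synthesis to cholesterol and 5 regulators. A further 5 genes serve uptake, transport and storage, and 2 serve efflux. The regulators are Srebf1 and Srebf2, which encode the sterol regulatory element-binding proteins (SREBPs), with Scap, Insig1 and Insig2. RNA was sequenced from 3T3-L1 cells, a single mouse fibroblast line that can be turned into adipocytes with insulin, IBMX and dexamethasone. The methods used cells at days 8 to 10 of that protocol for assays, and do not state the day of RNA collection. Treated cells received exosomes released by adipose tissue (AT-Exos) for 48 h, taken from inguinal white (iWAT), visceral white (vWAT) or brown (BAT) adipose tissue of mice on a low-fat diet (LFD) or a high-fat diet (HFD). This gave LFD-iWAT-Exos and HFD-iWAT-Exos, LFD-vWAT-Exos and HFD-vWAT-Exos, and LFD-BAT-Exos and HFD-BAT-Exos. All were set against the same control, whose label says that it had no treatment and which the supplementary legends call PBS buffer. Every library carried the genotype label WT, and how many mice fed each exosome preparation was not given in the sources used here.

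Each of the 7 groups was 1 library, so no difference between single groups had a replicate check, and every interval given covers the error of counting alone. Depth was 13.5 M counts in LFD-vWAT-Exos and 17.8 M to 24.3 M in the others, which places the floor of 3 counts at 0.122 to 0.234 counts per M of library total (CPM), and the smallest count of any of the 30 genes was 26, for Tm7sf2 in LFD-vWAT-Exos. One library, LFD-vWAT-Exos, was unlike the rest. In the 6 pairs that contain it, 28.7% to 30.5% of all genes were apart, against 1.69% to 5.16% in the 15 other pairs, where apart means a difference of at least 2-fold with a counting interval that excludes equal levels. Its mitochondrially encoded genes took 1.10% of the counts, against 2.19% to 2.60% elsewhere. The adipocyte label was checked as well. Of 12 adipocyte markers, 8 did not reach 1 CPM in any library, Adipoq and Plin1 included. The summed marker level was 340.1 CPM in LFD-vWAT-Exos and 1131 to 1392 CPM in the others. The detected markers did not share a direction. Lpl was at 216 CPM in LFD-vWAT-Exos and 926 to 1212 CPM in the others. Fabp4 was also lowest in LFD-vWAT-Exos, but only 1.04-fold below the control. Pparg, at 21.5 CPM against 12.5 to 14.2 CPM, was highest in LFD-vWAT-Exos. So was Lipe, at 26.5 CPM against 12.9 to 21.2 CPM. The 8 preadipocyte and fibroblast markers summed to 18946 CPM in LFD-vWAT-Exos and 40957 to 50678 CPM in the others. The matrix genes Col1a1, Col1a2, Col3a1 and Fn1, all lowest in LFD-vWAT-Exos, made up most of this sum. Thy1, at 30.3 against 126 to 152 CPM, and Dlk1, at 646 against 992 to 1409 CPM, were also lowest there. Pdgfra was nearly level, at 1154 against 1190 to 1329 CPM, and Pdgfrb, at 288 CPM, lay within 287 to 407 CPM. Macrophage markers, 6 of 10 of them below 1 CPM throughout, summed to 40.5 CPM against 9.48 to 14.0 CPM. Of those above 1 CPM, Csf1r, Cd68 and Mrc1 were highest in LFD-vWAT-Exos, while Lyz2, at 4.52 CPM, lay within 3.05 to 5.03 CPM. Endothelial markers, 3 of 6 below 1 CPM throughout, summed to 6.32 CPM against 2.47 to 3.98 CPM. Of the rest, Pecam1 and Cdh5 reached 1 CPM only in LFD-vWAT-Exos, on 15 and 13 counts. Vwf was at 3.35 CPM against 1.54 to 2.96 CPM, so these sums rest on few counts. The part of these differences in the results below was not tested, and in bulk RNA fewer cells of a type and less RNA per cell cannot be told apart.

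Cells make cholesterol from acetyl-CoA by way of mevalonate, farnesyl diphosphate, squalene and lanosterol. When sterol in the endoplasmic reticulum runs low, SCAP carries the SREBP precursors to the Golgi, where they are cut, and the freed factor turns on synthesis enzymes and genes of cholesterol uptake. INSIG proteins hold SCAP back when sterol is plentiful. Liver X receptors respond to oxysterols and turn on export genes such as Abca1. SREBPs bind sterol regulatory elements in promoters together with the factor NF-Y, which binds the CCAAT box.

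The promoters carry these letters in the following way. RefSeq promoter sequence (build GRCm38.p6, 250 bases before to 50 after the gene start) was matched for 25 of the 30 genes. Fdft1, Fdps, Npc1, Sqle and Stard4 had no entry. A core of the sterol regulatory element, CACNCCAC on either strand, was found in 3 of 25 (Acat2, Hmgcs1 and Insig1). Of all 27025 genes with an entry 7.12% had it, and of all 32851 promoters 6.24%. The NF-Y box, CCAAT on either strand, was found in 21 of 25, in 41.1% of all genes with an entry and in 37.4% of all promoters. Abca1, Acat2, Nr1h2 and Scap were the 4 without it. Stretches of 75 bases follow for genes that lay low (Hmgcs1, Acat2, Cyp51, Msmo1, Idi1) and high (Insig1, Lss, Soat1) in the LFD-vWAT-Exos library, 5′ to 3′ on the strand of the gene, with the matched core or box in capitals. They lie at chr13:119690182-119690256 (Hmgcs1, plus strand), chr17:12960865-12960939 (Acat2, minus), chr5:28071337-28071411 (Insig1, plus), chr5:4104698-4104772 (Cyp51, minus), chr8:64733592-64733666 (Msmo1, minus), chr13:8885531-8885605 (Idi1, plus), chr10:76531510-76531584 (Lss, plus) and chr1:156474329-156474403 (Soat1, minus).
Hmgcs1: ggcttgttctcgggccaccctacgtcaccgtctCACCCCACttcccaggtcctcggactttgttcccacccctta
Acat2: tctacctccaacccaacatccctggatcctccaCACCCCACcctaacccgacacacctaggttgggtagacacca
Insig1: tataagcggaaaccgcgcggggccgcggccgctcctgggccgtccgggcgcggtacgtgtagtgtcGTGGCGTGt
Cyp51: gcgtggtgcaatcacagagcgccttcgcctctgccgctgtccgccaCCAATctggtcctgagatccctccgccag
Msmo1: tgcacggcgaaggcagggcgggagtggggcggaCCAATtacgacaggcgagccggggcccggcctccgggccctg
Idi1: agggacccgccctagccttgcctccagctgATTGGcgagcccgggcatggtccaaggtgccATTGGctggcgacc
Lss: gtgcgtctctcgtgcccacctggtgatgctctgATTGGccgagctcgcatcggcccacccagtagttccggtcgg
Soat1: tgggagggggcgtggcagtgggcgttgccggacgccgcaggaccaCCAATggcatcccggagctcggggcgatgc
In the first 3 of these the capitals mark the sterol core, which in Insig1 reads on the opposite strand, and in the other 5 the CCAAT box, which in Idi1 and Lss reads on the opposite strand as ATTGG. Of the genes apart between LFD-vWAT-Exos and the control, 9 of 10 lower ones and 2 of 2 higher ones with a promoter entry had it. A match is only a match of letters.

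All 30 genes were detected in every library. Per length, as the deposited FPKM (counts scaled to gene length and library total), the median over the 6 libraries other than LFD-vWAT-Exos ran from 0.580 for Tm7sf2, a sterol reductase whose step Lbr also performs, to 384 for Npc2, the soluble lysosomal cholesterol carrier. Among enzymes Hmgcs1 was highest at 46.4 FPKM, followed by Fdft1 at 19.6 and Sc5d at 14.1. Among the regulators Srebf2 reached 34.4 FPKM and Srebf1 7.05. These levels rest on the gene lengths behind the deposited values, which were 0.600 to 2.59 times the exon length in the GENCODE annotation for these genes. Together the 30 genes took 0.281% to 0.317% of the counts.

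Most enzymes were lowest in the LFD-vWAT-Exos library. Of the 18 synthesis enzymes, 16 were below all 6 other libraries there and the remaining 2, Sqle and Lss, were above them all. Over the 30 genes, 19 were below and 9 above, and Scap and Stard4 lay within the range of the others. Over all genes with at least 1 CPM in any library, 41.9% were below and 38% above, so falling outside the range of the others was common for any gene in this library. Each gene was also set against its log2 mean over the 6 libraries other than LFD-vWAT-Exos. On that scale the median of the 18 enzymes was -1.40 in LFD-vWAT-Exos and between -0.12 and 0.19 elsewhere.

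**Figure D1:**
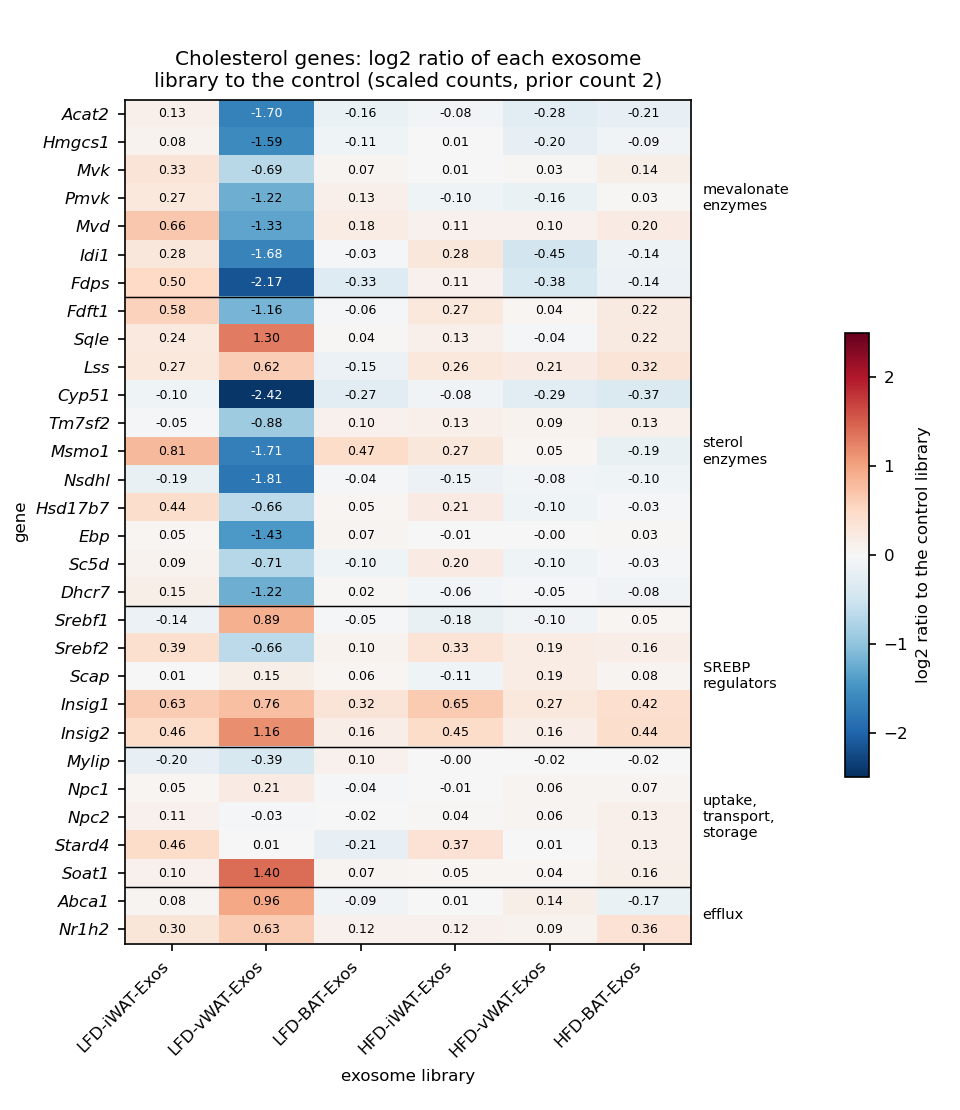
Heat map of the log2 ratio of each exosome library (columns) to the control library for the 30 genes (rows, grouped by role), from scaled counts with a prior count of 2. Blue is lower and red is higher than the control. The LFD-vWAT-Exos column holds the extremes, from -2.42 for Cyp51 to 1.40 for Soat1, and no ratio in the other 5 columns exceeds 0.81 in size.

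Set against the control, the LFD-vWAT-Exos library had 15 of 30 genes apart. Of these, 12 were lower, all of them synthesis enzymes, and 3 were higher (Sqle, Insig2 and Soat1). By the same rule 17.4% of all genes were lower and 13.2% were higher in this pair. The median log2 ratio was -1.28 over the 18 enzymes, 0.42 over the 12 other genes of the set, and -0.04 over all genes tested. Genes of different length also differed in this pair. The median log2 ratio over all genes was -0.23, -0.08, -0.03 and 0.13 in 4 equal bins from the shortest to the longest genes, by the length implied in the deposited values, and over the 2, 12, 9 and 7 members in these bins it was -1.24, -0.97, -0.66 and 0.62. The part of gene length in the result was not tested.

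The mevalonate enzymes lay low together in LFD-vWAT-Exos. All 7 were lower than the control beyond counting error, where 41.3% of all genes were, and 6 of them by at least 2-fold. Fdps, which joins isoprene units into farnesyl diphosphate, was at 41.7 CPM in the control, 58.8 in LFD-iWAT-Exos, 9.20 in LFD-vWAT-Exos, 33.1 in LFD-BAT-Exos, 45.1 in HFD-iWAT-Exos, 32.0 in HFD-vWAT-Exos and 37.9 in HFD-BAT-Exos. The LFD-vWAT-Exos value was 4.53-fold (95% counting interval 3.74 to 5.54) lower than the control and 3.48-fold below the nearest other library. Hmgcs1, which makes HMG-CoA, was at 154, 163, 51.2, 143, 156, 134 and 144 CPM in the same order, 3.01-fold (2.77 to 3.28) lower than the control in LFD-vWAT-Exos, while the 6 other libraries stayed within 1.21-fold of each other. Acat2, the cytosolic thiolase of the first step, ranged from 34.3 to 45.5 CPM in those 6 libraries and was at 12.7 CPM in LFD-vWAT-Exos, 3.27-fold (2.76 to 3.88) below the control. Idi1, which interconverts the isoprene units, was at 23.4, 28.6, 7.25, 23.0, 28.5, 17.1 and 21.3 CPM, 3.23-fold (2.59 to 4.08) below the control in LFD-vWAT-Exos. The lowest value of Idi1 outside LFD-vWAT-Exos was that of HFD-vWAT-Exos. Pmvk and Mvd, which phosphorylate and then decarboxylate the mevalonate skeleton, were 2.35-fold (1.80 to 3.12) and 2.55-fold (1.89 to 3.51) lower. Mvk, the kinase that acts before them, was 1.63-fold (1.32 to 2.01) lower and was the mevalonate enzyme nearest to its control level. Acat2, Idi1 and Fdps share at least 20% of their sequence or exon bases with other genes or gene copies (Acat3 and Tcp1 for Acat2, Gm43738 for Fdps), so how reads were assigned to them is uncertain.

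The sterol enzymes split. Cyp51, lanosterol demethylase, was at 16.8 CPM in the control, 15.6 in LFD-iWAT-Exos, 3.04 in LFD-vWAT-Exos, 14.0 in LFD-BAT-Exos, 15.9 in HFD-iWAT-Exos, 13.7 in HFD-vWAT-Exos and 13 in HFD-BAT-Exos. Its fold below the control, 5.53 (3.97 to 7.90), was the largest of the 30 genes, and it rests on 39 counts in LFD-vWAT-Exos. Msmo1, the methyl sterol oxidase, was at 34.1, 60.1, 10.4, 47.2, 41.3, 35.3 and 29.9 CPM. It was 3.29-fold (2.73 to 3.99) below the control in LFD-vWAT-Exos, and it also varied most among the 6 other libraries, by 2.01-fold between LFD-iWAT-Exos and HFD-BAT-Exos. That pair was the only one of the 15 pairs without LFD-vWAT-Exos in which any of the 30 genes was apart. Nsdhl, the decarboxylating dehydrogenase that acts after Msmo1, was 3.56-fold (2.80 to 4.58) lower, and Ebp, the sterol isomerase, was 2.73-fold (2.17 to 3.46) lower, with 19.2 to 20.4 CPM in the 6 other libraries. Dhcr7, which makes cholesterol from its last precursor in the Kandutsch-Russell branch, was 2.36-fold (1.86 to 3.02) lower, and Fdft1, squalene synthase, 2.23-fold (1.96 to 2.55) lower. Fdft1 overlaps Ctsb on the opposite strand and shares sequence with Gm6781, so its reads are uncertain. Smaller differences in the same direction were seen for Tm7sf2 (1.89-fold, 1.21 to 3.06), Sc5d (1.64-fold, 1.46 to 1.85) and Hsd17b7 (1.58-fold, 1.34 to 1.87).

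Sqle and Lss went the other way, although they act between Fdft1 and Cyp51 in the same pathway. Sqle, squalene epoxidase and one of the rate-limiting enzymes of the route, was at 70.0 CPM in the control, 82.6 in LFD-iWAT-Exos, 173 in LFD-vWAT-Exos, 71.9 in LFD-BAT-Exos, 76.5 in HFD-iWAT-Exos, 68.3 in HFD-vWAT-Exos and 81.6 in HFD-BAT-Exos. The LFD-vWAT-Exos value was 2.47-fold (2.31 to 2.63) above the control and 2.09-fold above the next library. Lss, which closes the ring to lanosterol, was at 39.7, 47.7, 61.2, 35.7, 47.4, 46.0 and 49.5 CPM, 1.54-fold (1.40 to 1.70) above the control in LFD-vWAT-Exos. That is 1.24-fold above HFD-BAT-Exos, the next library, so the highest place of Lss was held by a smaller margin.

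**Figure D2:**
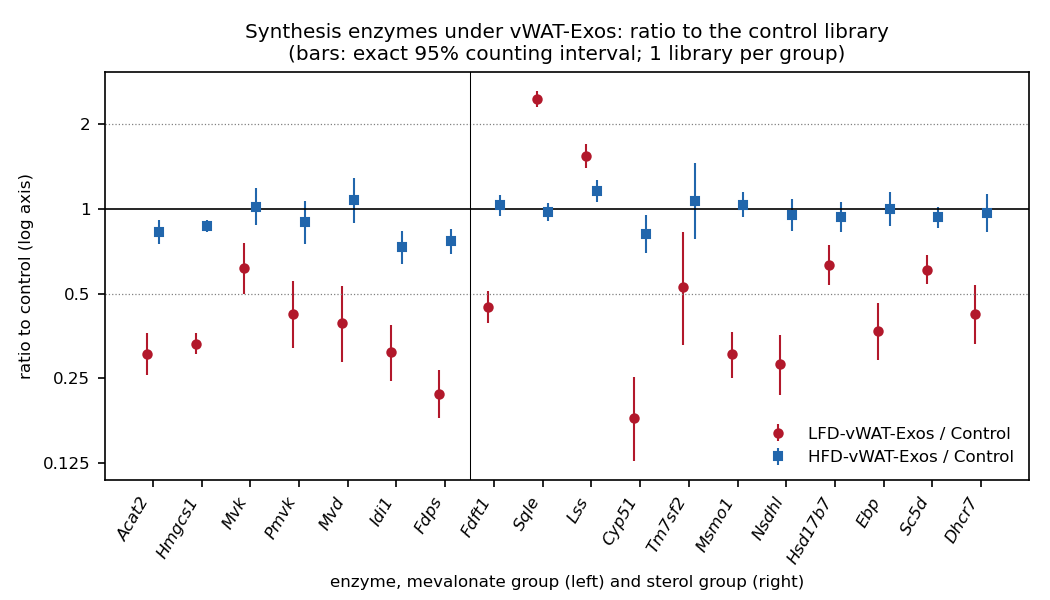
Ratio of the LFD-vWAT-Exos (circles) and HFD-vWAT-Exos (squares) libraries to the control library for the 18 synthesis enzymes in pathway order, on a log axis. Bars are exact 95% counting intervals with 1 library per group, and dotted lines mark 2-fold. The circles lie between 0.181 and 0.633 except for Sqle at 2.47 and Lss at 1.54, while the squares lie between 0.731 and 1.16.

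Among the SREBP regulators both transcription factor genes differed in LFD-vWAT-Exos, in opposite directions. Srebf2, whose product drives cholesterol synthesis genes, was at 152 CPM in the control, 199 in LFD-iWAT-Exos, 95.7 in LFD-vWAT-Exos, 162 in LFD-BAT-Exos, 191 in HFD-iWAT-Exos, 173 in HFD-vWAT-Exos and 169.8 in HFD-BAT-Exos, 1.58-fold (1.48 to 1.69) below the control in LFD-vWAT-Exos. In the same order, Srebf1, whose products lean towards fatty acid genes, was at 67.7, 61.5, 126, 65.5, 59.6, 63.3 and 70.0 CPM, 1.86-fold (1.73 to 2.00) above the control in LFD-vWAT-Exos. Neither crossed 2-fold against the control. Both lay outside the range of the 6 other libraries, where 41.9% of all genes lay below it and 38% above it. Insig2, one of the proteins that retain SCAP, was at 79.9, 109.7, 179, 89.3, 109, 89.1 and 109 CPM, 2.24-fold (2.11 to 2.39) above the control in LFD-vWAT-Exos. Insig1, its SREBP-induced relative, was at 19.5, 30.4, 33.1, 24.4, 30.7, 23.6 and 26.2 CPM. LFD-vWAT-Exos was highest here too, but only 1.08-fold above HFD-iWAT-Exos, and the control was the lowest of the 7 libraries for both INSIG genes. Scap itself stayed between 63.0 and 77.4 CPM in all libraries.

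The genes of uptake, transport and storage did not share a direction. Soat1, which esterifies cholesterol for storage, was at 157 CPM in the control, 169 in LFD-iWAT-Exos, 415 in LFD-vWAT-Exos, 165 in LFD-BAT-Exos, 163 in HFD-iWAT-Exos, 162 in HFD-vWAT-Exos and 175 in HFD-BAT-Exos. It was 2.64-fold (2.53 to 2.76) above the control in LFD-vWAT-Exos, while the 6 other libraries agreed within 1.11-fold. Npc1, the lysosomal membrane protein that hands cholesterol out of the lysosome, was at 177 CPM in LFD-vWAT-Exos and 148 to 160.5 CPM in the others. Its partner Npc2 stayed between 1178 and 1312 CPM. Stard4, a cytosolic sterol carrier, was at 32.3 CPM in LFD-vWAT-Exos and 27.8 to 44.2 CPM in the others. Mylip, a ubiquitin ligase that limits lipoprotein uptake, was at 57.6 CPM in LFD-vWAT-Exos and 65.8 to 81.4 CPM in the others, 1.31-fold (1.21 to 1.44) below the control.

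Both efflux genes were highest in LFD-vWAT-Exos. Abca1, the transporter that loads cholesterol onto apolipoprotein A-I, was at 75.2, 79.4, 146, 70.6, 75.9, 82.8 and 67.0 CPM in the order used for Soat1, 1.95-fold (1.82 to 2.08) above the control in LFD-vWAT-Exos. Nr1h2, which encodes liver X receptor beta, was at 86.0 CPM in LFD-vWAT-Exos and 55.6 to 71.2 CPM in the others, 1.55-fold (1.43 to 1.68) above the control. Neither reached 2-fold against the control.

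**Figure D3:**
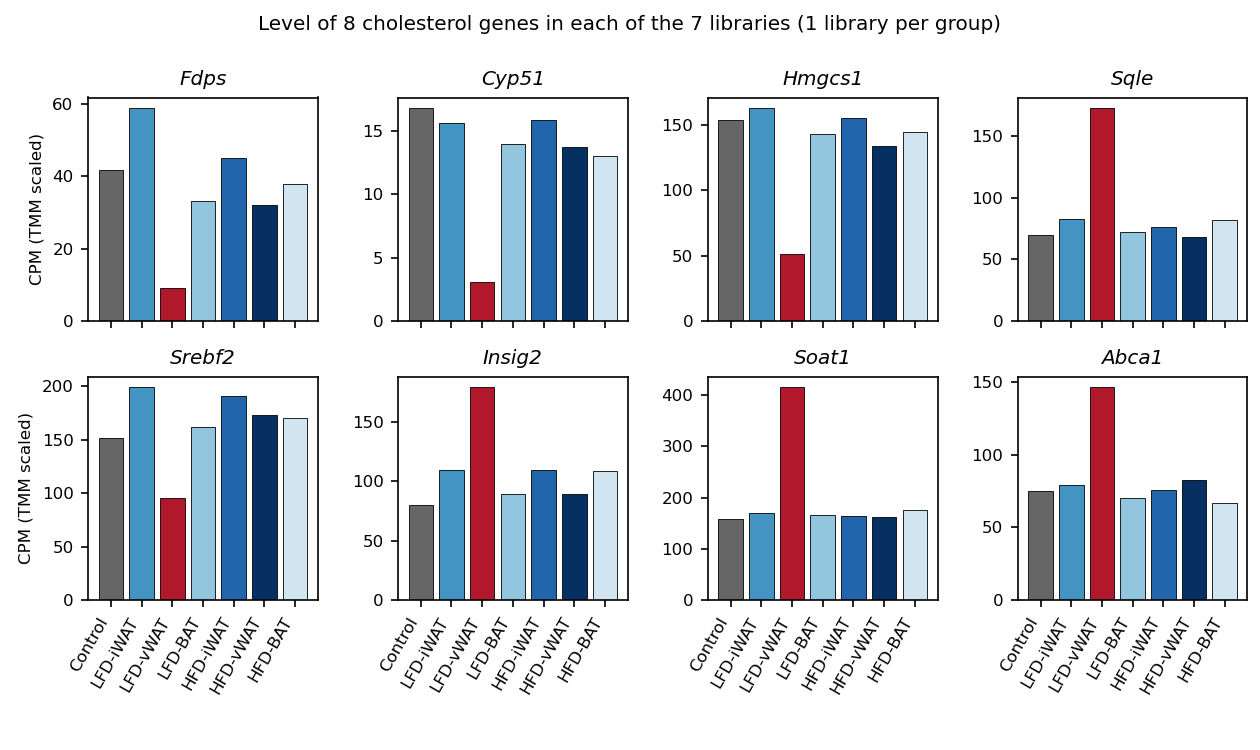
TMM-scaled CPM of 8 genes in each of the 7 libraries, 1 bar per library and axes from 0. In the LFD-vWAT-Exos bar (red) Fdps, Cyp51, Hmgcs1 and Srebf2 are lowest (9.20, 3.04, 51.2 and 95.7 CPM), and Sqle, Insig2, Soat1 and Abca1 are highest (173, 179, 415 and 146 CPM).

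The study asked how exosomes of obese mice compare with those of lean mice, and for these genes that comparison was made within each depot. Between HFD-vWAT-Exos and LFD-vWAT-Exos, 15 of 30 genes were apart, 12 higher with HFD-vWAT-Exos and 3 lower, where 17.6% of all genes were higher and 12% lower. All 12 higher genes were synthesis enzymes. Cyp51 was 4.52-fold (3.23 to 6.48), Fdps 3.48-fold (2.86 to 4.26), Msmo1 3.40-fold (2.83 to 4.12) and Nsdhl 3.38-fold (2.65 to 4.35) higher with HFD-vWAT-Exos, while Soat1 was 2.56-fold (2.45 to 2.67), Sqle 2.53-fold (2.37 to 2.70) and Insig2 2.01-fold (1.89 to 2.14) lower. Insig2 stands at the edge of the rule, with a log2 ratio of -0.93 when only total counts set the scale, and Srebf1, at 1.99-fold (1.85 to 2.14) lower, lay just outside it. This comparison and the one of LFD-vWAT-Exos with the control share the LFD-vWAT-Exos library, so they are not separate evidence.

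HFD-vWAT-Exos itself was close to the control. None of the 30 genes was apart between them, where 1.99% of all genes were. The interval excluded equal levels, at any fold, for 7 higher genes and 5 lower genes, where it did so for 19.7% of all genes upward and 18.9% downward. Both counts lie near these shares of all genes. The 5 lower genes were all enzymes, as are 18 of the 30 genes in the set. Idi1 was at 0.731 (0.638 to 0.837) of the control level, Fdps at 0.767 (0.694 to 0.848), Cyp51 at 0.817 (0.699 to 0.954), Acat2 at 0.825 (0.748 to 0.910) and Hmgcs1 at 0.871 (0.829 to 0.916). The 7 higher genes were Lss, Srebf2, Scap, Insig1, Insig2, Npc2 and Abca1, at 1.04 to 1.21 times the control.

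With iWAT-Exos the diet difference was small and mostly of the opposite sign. No gene of the 30 was apart between HFD-iWAT-Exos and LFD-iWAT-Exos, where 2.54% of all genes were. Beyond counting error 12 were lower with HFD-iWAT-Exos and 1, Mylip, was higher, against 22.7% of all genes lower and 22.1% higher. Of the 12 lower genes 9 were synthesis enzymes. Mvd was 1.47-fold (1.24 to 1.75), Msmo1 1.45-fold (1.33 to 1.59), Fdps 1.30-fold (1.20 to 1.42), Pmvk 1.30-fold (1.09 to 1.54), Fdft1 1.25-fold (1.16 to 1.35) and Mvk 1.25-fold (1.08 to 1.45) lower. The levels of Hmgcs1, Idi1, Cyp51 and Insig1 were within counting error of each other in both iWAT libraries.

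With BAT-Exos again no gene was apart by diet, where 1.97% of all genes were. Beyond counting error 11 were higher with HFD-BAT-Exos and 2 lower, against 20% of all genes higher and 18.1% lower. Lss was 1.38-fold (1.26 to 1.52), Stard4 1.27-fold (1.14 to 1.41), Insig2 1.22-fold (1.15 to 1.29), Fdft1 1.21-fold (1.12 to 1.32) and Nr1h2 1.18-fold (1.10 to 1.27) higher. The 2 lower genes were Mylip, 1.09-fold (1.02 to 1.16), and Msmo1, 1.58-fold (1.43 to 1.74). Of the 15 genes apart by diet under vWAT-Exos, 6 differed in the opposite direction beyond counting error under iWAT-Exos and 4 under BAT-Exos. Msmo1 was the 1 gene that did so under both. The same count over all genes is not given here. Beyond counting error, 22.1% of all genes were higher and 22.7% lower under iWAT-Exos, and 20% and 18.1% under BAT-Exos. Such differences were thus common for any gene. Whether the diet ratio differs between depots was not tested, because each ratio stands on 2 single libraries.

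**Figure D4:**
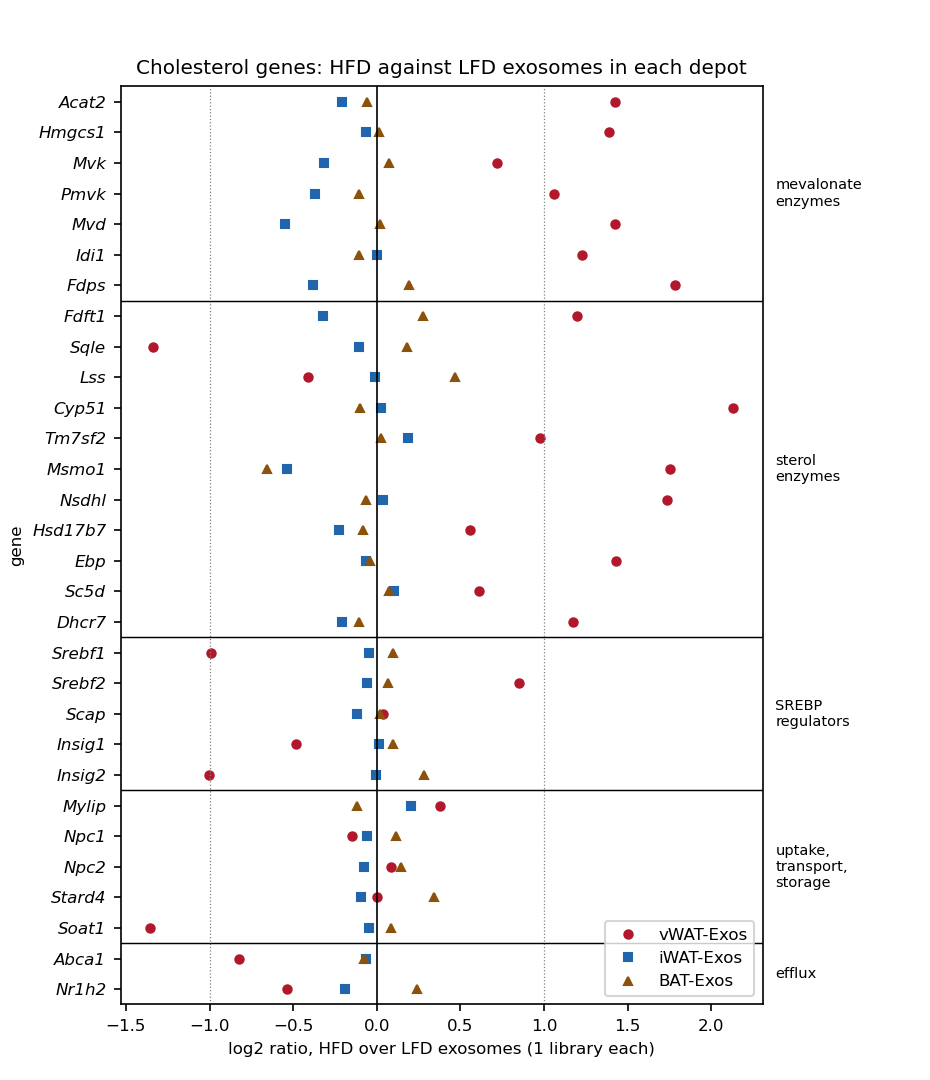
Log2 ratio of HFD over LFD exosomes for the 30 genes (rows, grouped by role) under vWAT-Exos (circles), iWAT-Exos (squares) and BAT-Exos (triangles), each from 1 library per diet. Dotted lines mark 2-fold. The circles reach from -1.36 for Soat1 to 2.13 for Cyp51, whereas the squares and triangles stay between -0.66 and 0.47.

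Against the control, LFD-iWAT-Exos gave modestly higher levels of many of the genes. None was apart, where 5.12% of all genes were, but the interval excluded equal levels for 19 higher and 3 lower genes, where it did so for 27.6% of all genes upward and 27.1% downward. Among the enzymes 12 were higher and 1, Nsdhl, was lower. Msmo1 was 1.76-fold (1.61 to 1.92), Mvd 1.59-fold (1.35 to 1.87), Fdft1 1.50-fold (1.39 to 1.62), Fdps 1.41-fold (1.30 to 1.53) and Hsd17b7 1.36-fold (1.22 to 1.51) higher. Of the 5 regulators 3 were higher, and so was the carrier Stard4, with Insig1 1.55-fold (1.38 to 1.75), Stard4 1.38-fold (1.25 to 1.52), Insig2 1.37-fold (1.29 to 1.46) and Srebf2 1.31-fold (1.26 to 1.37) higher. Srebf1 was 1.10-fold (1.02 to 1.18) lower, and Scap was within counting error of the control. Hmgcs1, at 1.06-fold (1.01 to 1.11), was only slightly higher, and Cyp51, at 0.930 of the control (0.805 to 1.08), was within counting error. Among the 6 libraries other than LFD-vWAT-Exos, LFD-iWAT-Exos held the highest level of 15 of the 30 genes, 12 of them enzymes, where 23.4% of all genes were highest in it.

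HFD-iWAT-Exos shared part of this. None of the 30 genes was apart from the control, where 2.91% of all genes were, and 12 were higher and 1 lower beyond counting error, where 24% of all genes were higher and 24% lower. Insig1 was 1.57-fold (1.38 to 1.78), Insig2 1.37-fold (1.28 to 1.46), Stard4 1.29-fold (1.16 to 1.43) and Srebf2 1.26-fold (1.20 to 1.32) higher, close to the values with LFD-iWAT-Exos. Mvd, Fdps, Mvk and Pmvk, in contrast, were within counting error of the control, at 1.08, 1.08, 1.01 and 0.932 times its level. The single lower gene was Srebf1, at 0.881 (0.814 to 0.954) of the control. Both comparisons use the same control library.

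**Figure D5:**
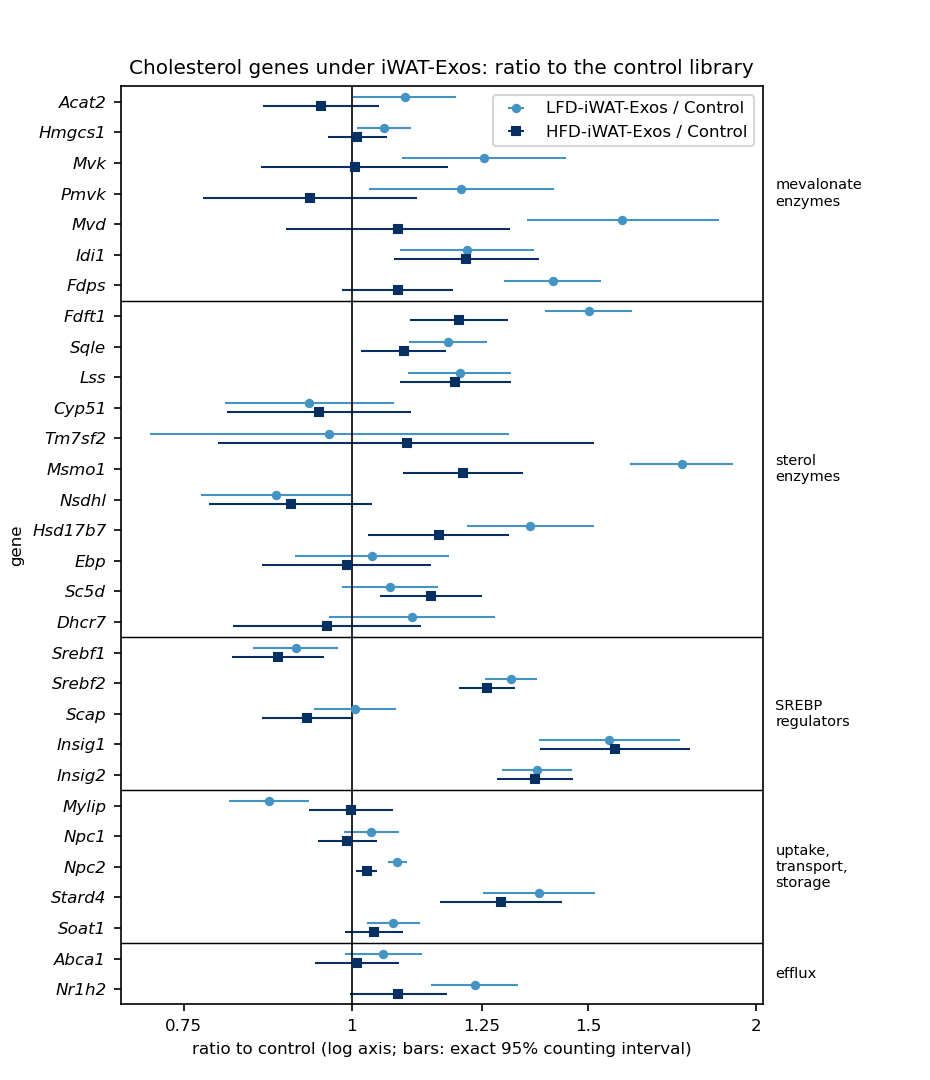
Ratio of the LFD-iWAT-Exos (circles) and HFD-iWAT-Exos (squares) libraries to the control library for the 30 genes (rows, grouped by role), on a log axis with exact 95% counting intervals. Srebf2, Insig1, Insig2 and Stard4 lie to the right of 1 in both libraries, at 1.26 to 1.57, and Msmo1 (1.76), Mvd (1.59) and Fdft1 (1.50) are farther right in LFD-iWAT-Exos than in HFD-iWAT-Exos.

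BAT-Exos of either diet left the genes near their control levels. With LFD-BAT-Exos none was apart, where 1.76% of all genes were, and 7 were higher and 6 lower beyond counting error, where 16.5% of all genes were higher and 18.1% lower. Msmo1 was 1.38-fold (1.26 to 1.52) higher, and Fdps was at 0.794 (0.721 to 0.876) and Cyp51 at 0.831 (0.713 to 0.968) of the control. With HFD-BAT-Exos none was apart, where 2.27% of all genes were, and 10 were higher and 6 lower beyond counting error, where 21.9% of all genes were higher and 21.4% lower. Cyp51 was at 0.775 (0.662 to 0.907), Acat2 at 0.862 (0.782 to 0.949) and Msmo1 at 0.875 (0.787 to 0.972) of the control, whereas Insig2 was 1.36-fold (1.28 to 1.45), Insig1 1.34-fold (1.18 to 1.52) and Nr1h2 1.28-fold (1.19 to 1.38) higher. Insig1 and Insig2 were thus above the control with each of the 6 exosome preparations. All 6 comparisons share that 1 control library, which was the lowest of the 7 for 4 of the 30 genes and for 12.4% of all genes.

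The study also set vWAT-Exos against iWAT-Exos of the same diet. Between LFD-vWAT-Exos and LFD-iWAT-Exos 18 of 30 genes were apart, 15 lower and 3 higher, where 17.1% of all genes were lower and 11.9% higher. Fdps was 6.39-fold (5.30 to 7.78), Msmo1 5.79-fold (4.85 to 6.97), Cyp51 5.14-fold (3.69 to 7.34) and Mvd 4.06-fold (3.04 to 5.51) lower with LFD-vWAT-Exos. The 3 higher genes were Soat1, 2.46-fold (2.36 to 2.56), Sqle, 2.09-fold (1.97 to 2.22), and Srebf1, 2.05-fold (1.91 to 2.20). Just inside the rule stood Mvk at a log2 ratio of -1.02, which was -0.99 with DESeq2 size factors. Between the HFD libraries of vWAT and iWAT no gene was apart, where 2.31% of all genes were, and 13 were lower and 3 higher beyond counting error, where 21.4% of all genes were lower and 21.7% higher. Idi1 was 1.67-fold (1.45 to 1.91), Fdps 1.41-fold (1.27 to 1.56) and Insig1 1.30-fold (1.15 to 1.47) lower with HFD-vWAT-Exos, and 9 of the 13 lower genes were enzymes.

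Tests were possible only where several libraries were set against each other. In edgeR's quasi-likelihood fits none of the 30 genes passed an adjusted p of 0.05 for AT-Exos against control, HFD against LFD, vWAT against iWAT or BAT against iWAT, and over all genes 0.00709%, 0%, 0% and 0% passed. At an unadjusted p under 0.05 stood 120 of 14102 genes in the first contrast, and 73, 366 and 124 of 13441 in the others. The numbers of members among them were 0, 0, 2 and 0. The 2 were Idi1, at a log2 difference of -1.28 ± 0.40 (SE, edgeR adjusted p = 0.777), and Fdps, at -1.50 ± 0.56 (SE, edgeR adjusted p = 0.777), both lower with vWAT-Exos. The 6 exosome libraries pooled against the control are 6 different treatments, and the fits of diet and depot leave 2 residual degrees of freedom. DESeq2 and limma-voom called none of the 30 genes either, with 4 and 2 members at an unadjusted p under 0.05 for vWAT against iWAT. Over all genes these numbers were 623 and 369 of 13441. Without the LFD-vWAT-Exos library the log2 difference for vWAT against iWAT was -0.72 for Idi1 and -0.66 for Fdps. These 2 genes were picked from the full fit, which holds the same libraries, so this is not separate evidence. The reads of both are uncertain. In the fit without LFD-vWAT-Exos, vWAT is the single HFD-vWAT-Exos library. In the reverse case, with HFD-vWAT-Exos left out, 21 of the 30 genes were called for vWAT against iWAT, as were 5623 of the 13922 genes tested (40.4%), where vWAT is LFD-vWAT-Exos alone and is assumed to vary like the other groups.

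Beyond the 30 genes, 40 other genes of the same pathways were followed as a list, of which 36 had at least 1 CPM in LFD-vWAT-Exos or the control. Between these libraries 11 were apart, 8 higher and 3 lower, and the median log2 ratio was 0.06, so the list as a whole did not share the lower level of the enzymes. Among the lower ones, Cyp7b1, an oxysterol hydroxylase, was 12-fold (8.15 to 18.4) below the control in LFD-vWAT-Exos, at 2.11 CPM against 25.3 to 43.2 CPM in the others. Among the higher ones were Apoe, the apolipoprotein that carries exported cholesterol, at 13.2 CPM against 1.49 to 4.47 CPM in the others, Abcg4, an efflux transporter, 3.62-fold (2.48 to 5.37) above the control, and Tmem97, an NPC1-binding protein whose reads are uncertain for shared sequence, 2.47-fold (2.14 to 2.84) above it. Lrp8, a lipoprotein receptor, was highest in LFD-iWAT-Exos at 10.1 CPM and lowest in LFD-vWAT-Exos at 2.50 CPM, 4.04-fold (2.79 to 6.04) apart. Of these 40 genes 37 entered the edgeR fits of all libraries, and none was called.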

How the data were processed

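According to the methods, paired-end reads were trimmed by the authors with fastp and mapped with HISAT2, and StringTie and gffcompare served to assemble and quantify genes. HISAT2, StringTie and edgeR are also named in the submitters' processing notes. Versions, the mouse build and whether counting used strand were not given in the sources used here, and the reference named there is human, although the gene IDs are mouse. The deposited count table holds raw whole-number counts per gene. The deposited FPKM table was computed by the authors from the same genes and is used only to compare levels between genes and as an alternative.

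Counts were scaled with TMM factors (edgeR 4.0.16, R 4.3.3; 0.950 for LFD-vWAT-Exos, 1.00 to 1.01 otherwise). Between 2 single libraries no test was made. Ratios of scaled counts carry an exact 95% interval (Clopper-Pearson), which takes reads as independent and covers counting error only, since PCR copies carried no molecular identifiers. Either library of a pair had to reach 1 CPM. A gene was apart at an absolute log2 ratio (prior count 2) of at least 1 with an interval excluding equal levels. Percentages of all genes use the same rule. AT-Exos against control, and diet and depot together over the 6 exosome libraries, were fitted on genes past filterByExpr and tested by the edgeR quasi-likelihood method, with p adjusted after Benjamini-Hochberg. The SE was the absolute log2 difference over the square root of F. DESeq2 1.42.0 and limma 3.58.1 (voom) were alternatives, with other scalings, filters and each library left out. Scripts were tested on simulated data. Reads were called uncertain where at least 20% of exon bases or 31-mers occur in another gene (GENCODE vM21). Promoters came from RefSeq (GRCm38.p6).

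All 30 members were named, and of 40 other pathway genes the 6 with the largest ratio among those apart with at least 50 counts, except where a result is not reported here. The members were chosen by name and not by their values, but they, the lists, alternatives and rules were chosen with earlier results of these data known.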

Additional observations from a re-analysis of the deposited data

Results flagged for a closer look

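One result stood out from the comparison of depots. The ratio of HFD over LFD exosomes for Msmo1 was 1.76 on the log2 scale under vWAT-Exos, -0.54 under iWAT-Exos and -0.66 under BAT-Exos. The vWAT value exceeded the mean of the other two by 2.35, and both of those lay beyond counting error in the opposite direction. The difference was not tested, since each ratio rests on 1 library per diet. Other genes came near it. In the same order Cyp51 was at 2.13, 0.02 and -0.10, and Fdps at 1.78, -0.38 and 0.19. Msmo1 was at 10.4 CPM in LFD-vWAT-Exos, 35.3 in HFD-vWAT-Exos and 34.1 in the control. In pairs with LFD-vWAT-Exos, 28.7% to 30.5% of all genes were apart.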

How the results depend on the processing

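The counts of members apart were within 1.5 times the main count under total-count scaling, DESeq2 size factors, a minimum of 10 CPM, no minimum and FPKM with a pseudocount of 1, and no member reversed. Of single members apart in a pair, 15 of 240 settings fell under 2-fold. Total-count scaling moved the median of all genes between LFD-vWAT-Exos and the control from -0.04 to -0.13 on the log2 scale, with 15 members apart in both. On FPKM with the pseudocount, 2112 of all genes and 13 members were apart in this pair, against 3842 and 15. For members called by edgeR, leaving out each library gave 0 to 21 for vWAT against iWAT, 21 without HFD-vWAT-Exos, and 0 in every other fit. Over all genes the calls with each other library left out ranged from 0 to 2 for AT-Exos against control, 0 to 7 for BAT against iWAT, 0 to 11 for HFD against LFD and 0 to 5623 for vWAT against iWAT. Without LFD-vWAT-Exos they were 11 for AT-Exos against control, 11 for HFD against LFD, 12 for vWAT against iWAT and 0 for BAT against iWAT. DESeq2 called 5, 8, 10 and 2 genes for AT-Exos against control, HFD against LFD, vWAT against iWAT and BAT against iWAT, against 1, 0, 0 and 0 by edgeR. The cause of these differences was not tested. Leaving out the control gives no AT-Exos fit. The diet fit holds depot as a term and so pairs the HFD and LFD libraries of each depot, and the labels give no replicate numbers for a further block. Differences between single libraries include those between cultures, which cannot be told apart from treatment here.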
